A study of Mus musculus with 32 samples.

Results

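The claudins described here are 9 genes, Cldn1, Cldn2, Cldn3, Cldn4, Cldn5, Cldn7, Cldn8, Cldn11 and Cldn12, taken by name from the 54532 genes of a kidney count table. Cldn10, Cldn14, Cldn16 and Cldn19, the claudins best known from the thick ascending limb, were set apart and serve only for comparison. The kidneys came from 32 wild type C57BL/6 mice, 4 in each of 8 groups: males and females at Day 0, and males and females 2, 3 and 5 days after a single intraperitoneal injection of 20 mg/kg cisplatin, a platinum drug that injures the renal tubule. The study calls the Day 0 mice healthy, although the labels of the 4 Day 0 females carry cisplatin and those of the Day 0 males do not. By its label each library was made from total RNA of the kidney of 1 mouse, so all cell types of the organ were mixed in it. A lower value in such bulk tissue cannot tell fewer cells of a type apart from less RNA per cell.

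Claudins are membrane proteins with 4 passes, whose extracellular loops meet those of the neighbouring cell in the tight junction and set which ions and how much water pass between cells. Each nephron segment has its own combination. Cldn2 forms the cation and water pore of the leaky proximal tubule, Cldn1 seals the parietal epithelium of Bowman's capsule, Cldn3, Cldn4, Cldn7 and Cldn8 are known from the distal nephron and collecting duct, and Cldn5 is the main claudin of endothelium. Cldn11 is best known from myelin and from the Sertoli cells of the testis, and Cldn12 is found in many epithelia. On GRCm38, whose coordinates the deposited table carries, the 9 protein-coding genes lie at chr16:26356642-26371841 (Cldn1), chrX:139800828-139811386 (Cldn2), chr5:134986214-134987472 (Cldn3), chr5:134945119-134946934 (Cldn4), chr16:18776847-18778262 (Cldn5), chr11:69964779-69967885 (Cldn7), chr16:88560828-88563183 (Cldn8), chr3:31149920-31164324 (Cldn11) and chr5:5489537-5514958 (Cldn12).

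Total counts lay between 16502107 and 35961325 per library, and all 9 claudins passed the filter on low counts in every comparison. The Day 5 libraries stood apart from the rest. Transcripts of the mitochondrial genome took 42.5% of the counts of the library labelled male Day 5 mouse 1 and 78.9%, 79.8% and 79.7% of those of male Day 5 mice 2 to 4, against 6.46% to 24.0% in Day 0 males. In Day 5 females they took 31.6%, 77.9%, 22.2% and 9.30%, and at Days 2 and 3 between 4.87% and 14.0% in either sex. Xist, a transcript of females, had 4153 counts in male Day 5 mouse 1 by its label, where Y-linked genes had 387. Smaller counts went against other labels. Y-linked genes had 5 to 221 counts in Day 0 females (highest in mouse 1) and 0 in all later females, and Xist had 0 to 242 counts in Day 0 males. The other 3 male Day 5 libraries held 59 to 260 counts of Xist, whereas males of Days 2 and 3 held 0 to 5. Markers of the proximal tubule, thick limb and collecting duct principal cell were present in all libraries, with summed levels of at least 1460, 565 and 495 CPM (counts scaled to the library total with TMM factors).

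The sequences just upstream of Cldn3, Cldn4 and Cldn7 are shown because these genes of the distal nephron hold the results on Cldn4 and the shared pattern of Cldn3 and Cldn7. RefSeq promoter windows on GRCm38.p6, from 250 bases before to 50 bases after the start of transcription, were matched by symbol for 8 of the 9 claudins, the exception being Cldn8. Capitals mark 2 motifs searched on both strands, the E-box CAGGTG (which reads CACCTG on the other strand), a binding sequence of the Snail and Zeb repressors, and the AP-1 sequence TGANTCA, where N is any base. The windows are chr5:134985964-134986263 on the plus strand for Cldn3, chr5:134946885-134947184 on the minus strand for Cldn4, and chr11:69965171-69965470 on the plus strand for the second of the 2 Cldn7 starts.
Cldn3: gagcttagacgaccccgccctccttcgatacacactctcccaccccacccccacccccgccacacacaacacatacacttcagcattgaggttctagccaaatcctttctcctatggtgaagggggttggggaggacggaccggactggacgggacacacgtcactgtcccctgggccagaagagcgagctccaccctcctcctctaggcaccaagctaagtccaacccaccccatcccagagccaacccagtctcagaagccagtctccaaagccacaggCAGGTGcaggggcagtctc
Cldn4: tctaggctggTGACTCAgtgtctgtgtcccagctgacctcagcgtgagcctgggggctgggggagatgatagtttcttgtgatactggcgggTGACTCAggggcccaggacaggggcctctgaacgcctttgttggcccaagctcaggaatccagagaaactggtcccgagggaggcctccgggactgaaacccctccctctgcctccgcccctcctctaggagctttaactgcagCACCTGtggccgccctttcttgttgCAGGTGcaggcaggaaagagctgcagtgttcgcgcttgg
Cldn7: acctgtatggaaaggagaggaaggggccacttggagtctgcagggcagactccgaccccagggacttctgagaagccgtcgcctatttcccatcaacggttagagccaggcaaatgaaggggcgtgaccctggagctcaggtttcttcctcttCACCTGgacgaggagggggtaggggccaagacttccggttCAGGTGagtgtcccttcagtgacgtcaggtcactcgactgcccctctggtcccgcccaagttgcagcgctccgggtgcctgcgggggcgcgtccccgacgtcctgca

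The E-box stood in windows of 3 of the 8 claudins, and these were the 3 printed. The window of the first Cldn7 start, chr11:69964529-69964828, is not printed and held 0. By the first base of each match, counted from the start of transcription at 1, Cldn4 had it at positions -14 and 12, Cldn3 at 32 and Cldn7 at -97 and -57. Among all 32851 windows of the same length, 20.2% held it, and among all 27025 genes with a window, 22.6% had it in at least 1. AP-1 sequences were found only for Cldn4, at -240 and -158, against 8.97% of all genes (7.81% of windows). A Grainyhead-type sequence, AACCNGTT, lay at -20 of Cldn5 in its other-strand form (2.35% of genes and 2.09% of windows), and TATAAA lay at -35 of Cldn2 (15.7% of genes and 13.6% of windows). None of these matches overlapped another. They describe letters, and no binding was measured. Cldn3 and Cldn4 are also neighbours on chromosome 5, with 39279 bases between them.

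Cldn2 had the highest level of the 9 claudins in the Day 0 kidney on the FPKM scale, which divides by gene length and so allows genes to be compared. At Day 0 its level was 103 FPKM in males (median of 4, range 90.9 to 115) and 84.6 FPKM in females (65.5 to 116), or 57.7% and 37.1% of the summed FPKM of the 9 claudins in the median mouse. It lay above every other claudin in all 4 mice of 7 groups. Behind it in Day 0 males came Cldn8 (17.2), Cldn3 (14.3), Cldn5 (13.9) and Cldn12 (12.9), whose ranges overlapped, then Cldn4 (9.53) and Cldn7 (9.50), also overlapping, then Cldn1 (2.98) and Cldn11 (0.710), each below the one before without overlap. Day 0 females had Cldn3 (29.0), Cldn5 (27.5), Cldn7 (24.0), Cldn8 (17.2), Cldn4 (15.4) and Cldn12 (13.9) in a run of overlapping neighbours, and again Cldn1 (4.87) and Cldn11 (1.41) apart below them. At Days 2 and 3 Cldn4 had the second highest median in both sexes, overlapping the next claudin in each group. In Day 2 males it could not be told apart from Cldn8 and Cldn12, with medians of 14.6, 14.5 and 14.3 FPKM, and it was above Cldn8 in 2 of 4 mice. Male Day 5 was the group with another order: Cldn4 led with 41.4 FPKM (25.9 to 59.8), Cldn3 followed with 33.8 FPKM (16.6 to 37.3), and Cldn2 was sixth with 12.3 FPKM (5.27 to 81.0).

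**Figure D1:**
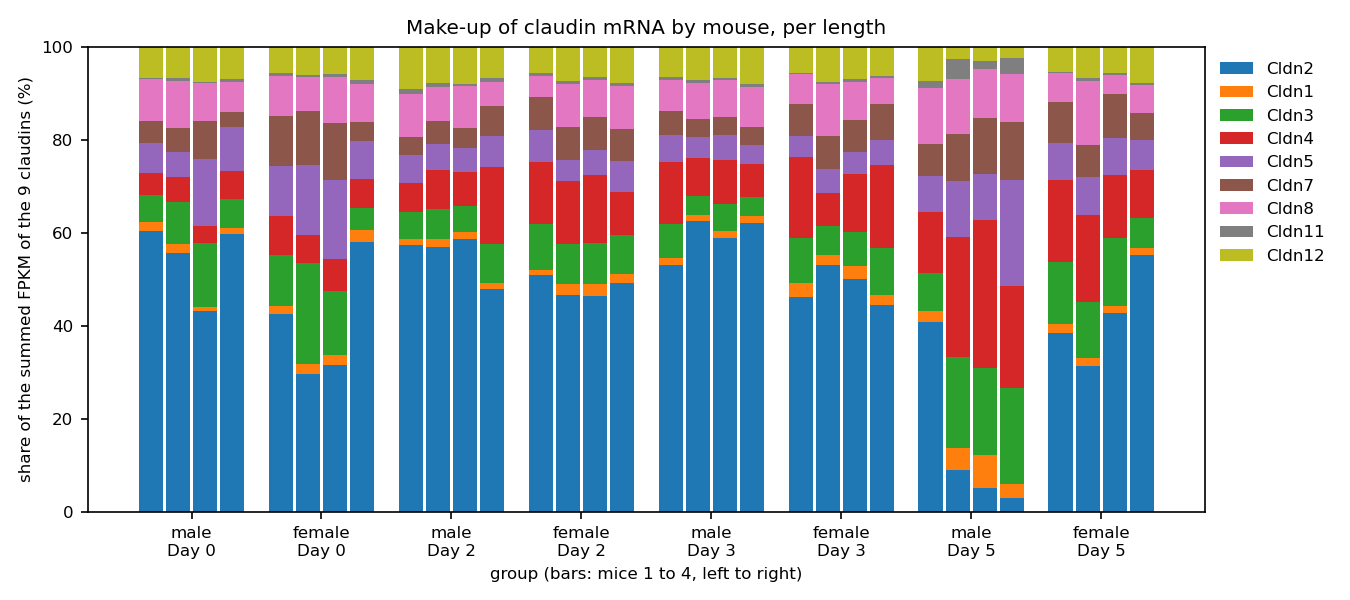
Share of each claudin in the summed FPKM of the 9 claudins (%), 1 bar per mouse, mice 1 to 4 from left to right in each group. Cldn2 took 29.7% to 62.6% in all groups but male Day 5, where mice 2 to 4 lay between 2.90% and 8.96% and mouse 1 had 40.8%.

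The first question was which claudins changed after cisplatin, by day and sex. Cldn4 rose in males at Day 3 and Day 5, Cldn1 and Cldn11 rose in males at Day 5, and Cldn5 fell in females at Day 3. A change was called at a Benjamini-Hochberg adjusted p under 0.05 over all genes tested in the comparison (edgeR quasi-likelihood test). In males, 0 of 9 claudins were called at Day 2, where 1.81% of all genes were called higher and 1.35% lower (1 claudin and 29% of all genes had an unadjusted p under 0.05, the DESeq2 Wald test called 1 claudin and 18.4% of genes, and limma voom 2 and 46.4%). At Day 3, 1 was called higher and 0 lower, against 11.4% and 13.1% of all genes. At Day 5, 3 were called higher and 0 lower, against 8.98% and 10.2%. In females, 0 of 9 were called at Day 2 (background 0.774% higher and 1.16% lower, with 2 claudins and 25.3% of genes at an unadjusted p under 0.05, 2 and 13.4% called by DESeq2, and 4 and 50% by voom). At Day 3, 0 were called higher and 1 lower, against 1.26% and 4.28%. At Day 5, 0 of 9 were called (background 0.185% higher and 0.0738% lower, with 3 claudins and 15.7% of genes at an unadjusted p under 0.05, 1 and 5.1% called by DESeq2, and 2 and 18.9% by voom). The median log2 fold change of the 9 claudins was 0.81 in males at Day 5, where the median of all genes was 0.04, and between -0.50 and 0.06 in the other 5 comparisons. Between Day 3 and Day 2, 0 of 9 claudins were called in either sex (1 in males and 0 in females had an unadjusted p under 0.05), and 0% of all genes were called in either direction (1410 genes in males and 678 in females had an unadjusted p under 0.05, DESeq2 called 72 and 61 genes, voom 2 and 10, and neither called a claudin). These day comparisons share the Day 0 mice of each sex.

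**Figure D2:**
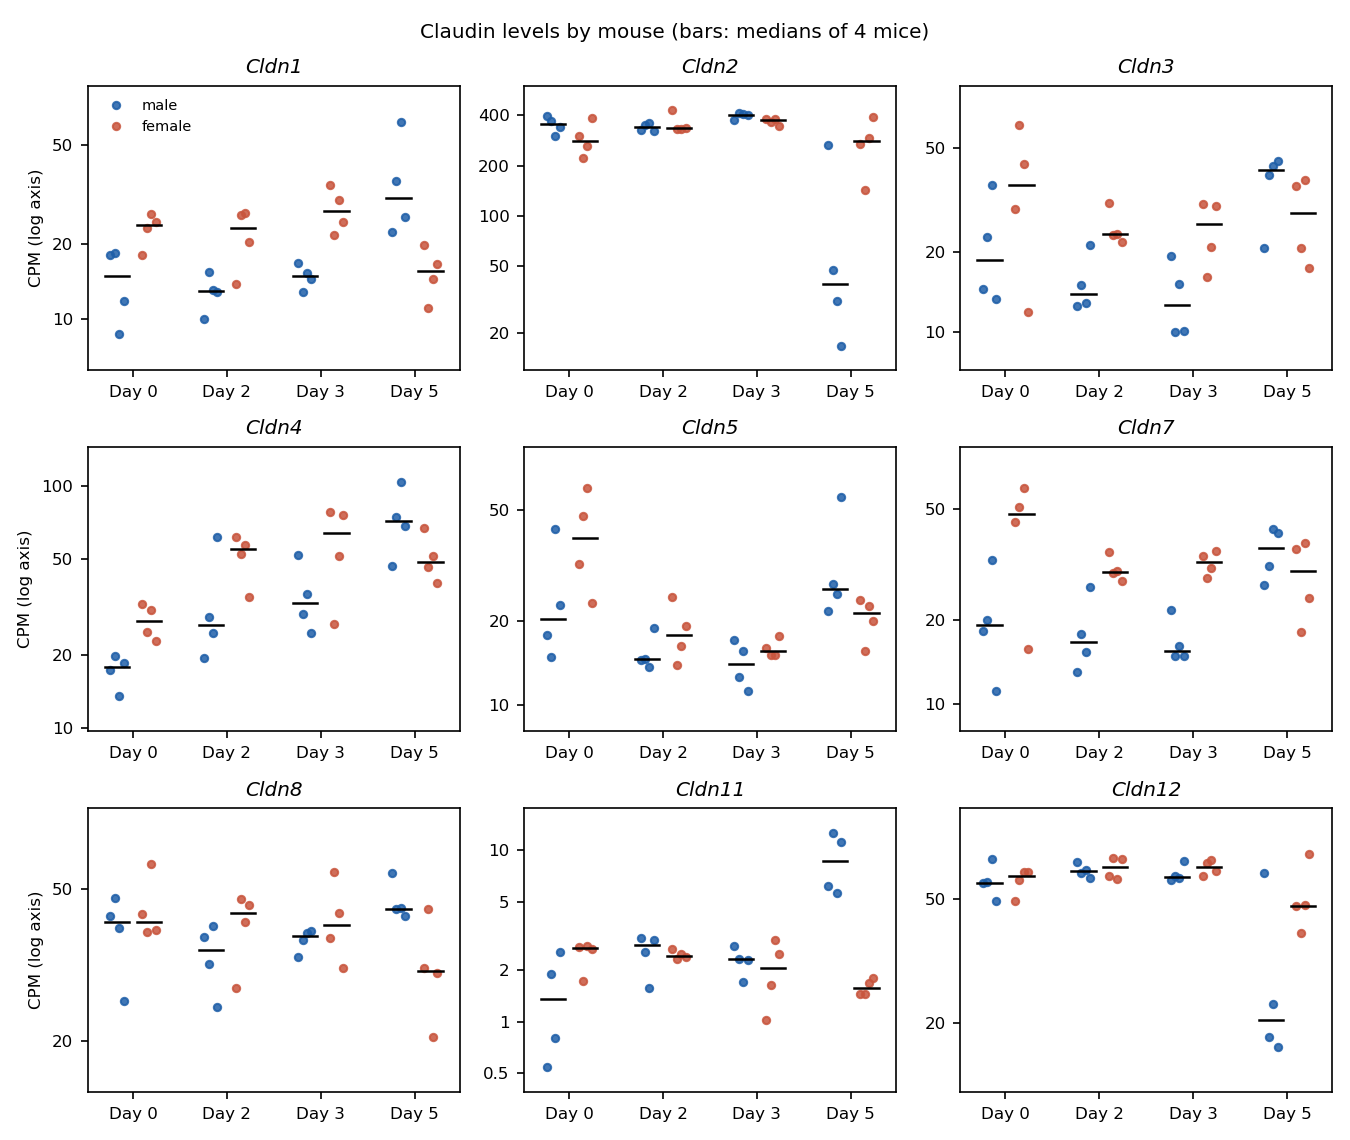
CPM of each claudin in each mouse (log axis), males blue and females red, by day, with black bars at the median of 4 mice. Cldn4 lay above its own sex at Day 0 in all male mice at Days 3 and 5 and all female mice at Days 2 and 5, and Cldn2 and Cldn12 were low in 3 of the 4 male Day 5 mice.

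Cldn4, which forms paracellular chloride paths with Cldn8 in the collecting duct, was the claudin called in the most day comparisons. Its levels in Day 0 males were 17.3, 19.8, 13.5 and 18.5 CPM. They were 19.5, 28.8, 24.6 and 61.7 CPM at Day 2, 51.9, 29.7, 35.8 and 24.6 CPM at Day 3, and 46.8, 74.7, 104 and 68.8 CPM at Day 5. All male mice at Day 3 and Day 5 thus stood above all Day 0 males, while 1 Day 2 mouse lay within the Day 0 range. The mean rose from 17.3 ± 2.71 CPM (SD, n = 4) to 35.5 ± 11.8 at Day 3, a log2 fold change of 1.04 (SE 0.235, edgeR adjusted p = 0.0195), and to 73.6 ± 23.6 at Day 5, a log2 fold change of 2.16 (SE 0.26, edgeR adjusted p = 0.00421). The Day 3 call was lost without male Day 3 mouse 3 (adjusted p = 0.0631) and with the mouse number as a replicate block (adjusted p = 0.0657). The Day 5 call held under all 8 alternative fits and without each mouse in turn, and without the library labelled male Day 5 mouse 1 the log2 fold change was 2.34. At Day 2 the log2 fold change was 0.98 (SE 0.338, edgeR adjusted p = 0.104), and 3 of 8 other fits called it (lowest adjusted p = 0.0402, DESeq2). Without male Day 2 mouse 4, the highest of the group, it was 0.50 (adjusted p = 0.152), and voom, which weights libraries, gave 0.48.

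In females Cldn4 was 32.6, 24.9, 30.6 and 22.9 CPM at Day 0. It was 61.5, 52.4, 57.4 and 34.8 CPM at Day 2, 78.5, 26.9, 51.3 and 76.4 CPM at Day 3, and 67.2, 46.2, 51.2 and 39.7 CPM at Day 5. Every mouse at Days 2 and 5 lay above every Day 0 female, and at Day 3 mouse 2 lay among them. None of the female changes passed the edgeR test, with log2 fold changes of 0.89 (SE 0.237, edgeR adjusted p = 0.0622), 1.06 (SE 0.319, adjusted p = 0.0696) and 0.88 (SE 0.22, adjusted p = 0.137) at Days 2, 3 and 5. Leaving out female Day 0 mouse 4 brought the Day 2 and Day 5 values past the threshold (adjusted p = 0.0288 and 0.0375), and leaving out female Day 3 mouse 2 did so at Day 3 (adjusted p = 0.0248). Of 8 other fits, 4 called the change at Day 2, 3 at Day 3 and 2 at Day 5 (lowest adjusted p = 0.00283, 0.0149 and 0.0146). The change by Day 5 was 1.26 log2 units larger in males (SE 0.339, edgeR adjusted p = 0.107), which did not pass the test, but did so without the library labelled male Day 5 mouse 1 (adjusted p = 0.0106) and in 2 of 8 other fits (lowest adjusted p = 0.00263, voom). Set against the summed CPM of 7 principal cell markers, Cldn4 was 1.24% to 3.75% in Day 0 males (median 2.33%), 3.07% to 5.65% at Day 2, 3.96% to 6.95% at Day 3 and 4.16% to 6.02% at Day 5 (median 4.68%). In females it was 1.65% to 3.18% at Day 0, 3.93% to 8.16% at Day 2, 2.76% to 8.05% at Day 3 and 4.16% to 6.15% at Day 5. On that scale male Day 2 and female Day 3 overlapped Day 0, and the other 4 groups did not. The marker sum itself had a median of 796 CPM in Day 0 males and 1600 CPM in Day 5 males, and its part in the Day 5 rise of Cldn4 was not tested.

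Cldn3 and Cldn7, barrier-type claudins of the collecting duct, had the most alike levels of any pair of the 9 but one. Their log2 CPM correlated with r = 0.906 over the 32 libraries, with r = 0.912 over the 24 libraries without Day 5 and with r = 0.889 after the group means were taken off. The points share groups and library make-up, and no p is given. Each was among the 2 genes of 18220 most like the other, and Wfdc2, a secreted protease inhibitor homologue of distal epithelium, was the other for both (r = 0.893 and 0.928). Both also followed the summed principal cell markers (r = 0.861 and 0.842). Neither was called in any comparison with Day 0 by the edgeR test, while voom called both in Day 5 males and Day 2 females, and Cldn7 in Day 3 females, comparisons in which voom called 54.8%, 50% and 47.8% of all genes. Cldn3 in Day 5 males was 20.8, 39.5, 42.4 and 44.4 CPM against 14.6, 22.8, 35.9 and 13.3 CPM at Day 0, with overlap. Cldn7 in Day 5 males was 26.7, 31.3, 42.5 and 41.1 CPM against 18.3, 20.1, 32.8 and 11.2 CPM at Day 0, again with overlap (log2 fold change 0.83, SE 0.326, edgeR adjusted p = 0.0991). Without male Day 0 mouse 3, the highest Day 0 male for both, both were called (adjusted p = 0.0215 for Cldn7).

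Cldn8, the partner of Cldn4, varied least of the 9. Its levels ran from 20.5 to 58.3 CPM over all 32 mice, a ratio of 2.84, while Cldn4 spanned a ratio of 7.70. The group medians lay between 30.6 CPM in Day 5 females and 44.5 CPM in Day 5 males. The edgeR test called it in no comparison, while voom called it in Day 3 males against Day 0 and between the sexes at Day 5 (where it called 57.1% and 29.7% of all genes). Against the summed principal cell markers it was 3.61% to 5.79% in Day 0 males (median 5.33%) and 2.56% to 5.27% in Day 5 males (median 2.74%), with overlap.

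Cldn2 was not called by the edgeR test at Day 2 or Day 3 in either sex, while voom called it, like 47.8% of all genes, in Day 3 females. Male levels were 397, 368, 299 and 339 CPM at Day 0, 326, 352, 361 and 324 CPM at Day 2, and 373, 412, 407 and 399 CPM at Day 3, where the Day 3 mice lay above all Day 2 mice (log2 fold change 0.22, SE 0.0812, edgeR adjusted p = 0.572). Female levels at the same days ran from 222 to 428 CPM with overlapping groups. In Day 5 males the levels were 267, 47.5, 30.9 and 16.6 CPM, all below Day 0, with mouse 1 far above the others. The log2 fold change was -1.90 (SE 0.746) and did not pass the test (edgeR adjusted p = 0.0994), but without the library labelled male Day 5 mouse 1 it was -3.39 (adjusted p = 0.000661). In Day 5 females the levels were 270, 142, 291 and 393 CPM, and the lowest was mouse 2, the female library with 77.9% mitochondrial transcripts. The 4 libraries with the lowest Cldn2 were thus the 4 with mitochondrial shares between 77.9% and 79.8%, and the part of that share in the result was not tested.

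Other proximal tubule genes give the setting for Cldn2. Against the summed CPM of 10 proximal tubule markers it was 0.331% to 1.58% in Day 0 males (median 0.975%), 1.33% to 2.61% at Day 2, 1.62% to 2.28% at Day 3 and 0.296% to 2.93% at Day 5 (median 1.63%). In females it was 0.579% to 2.73% at Day 0, 2.46% to 4.96% at Day 2, 2.65% to 6.98% at Day 3 and 2.73% to 3.65% at Day 5. Males at Day 3 lay above Day 0, while males at Days 2 and 5 and females at Days 2 and 3 overlapped it. In Day 5 males 4 of the 10 markers fell and 0 rose, against 10.2% and 8.98% of all genes. The largest falls were of Slc7a13 (log2 fold change -4.47, SE 0.664), Kap (-3.54, SE 0.799) and the transporters Slc22a6 (-3.12, SE 0.619) and Slc34a1 (-2.93, SE 0.735), all by the edgeR test. The genes most like Cldn2 over the 32 libraries were Acot4 (r = 0.982) and Slc2a2, the glucose transporter of the proximal tubule (r = 0.975), which without Day 5 had r = 0.805 and 0.488.

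Cldn12 had the steadiest level outside Day 5, between 49.2 and 67.4 CPM in 24 mice. In Day 5 males it was 60.5, 18.0, 23.0 and 16.8 CPM, so mice 2 to 4 lay far below every Day 0 male (49.2 to 67.0 CPM) and mouse 1 among them. The log2 fold change was -0.89 (SE 0.385, edgeR adjusted p = 0.127), and without the library labelled male Day 5 mouse 1 it was -1.49 (adjusted p = 0.00131). Day 5 females had 47.5, 39.0, 47.7 and 69.8 CPM, the lowest again in mouse 2. Cldn12 and Cldn2 correlated with r = 0.943 over the 32 libraries but r = 0.0831 over the 24 without Day 5, so the likeness lay in the Day 5 mice.

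**Figure D3:**
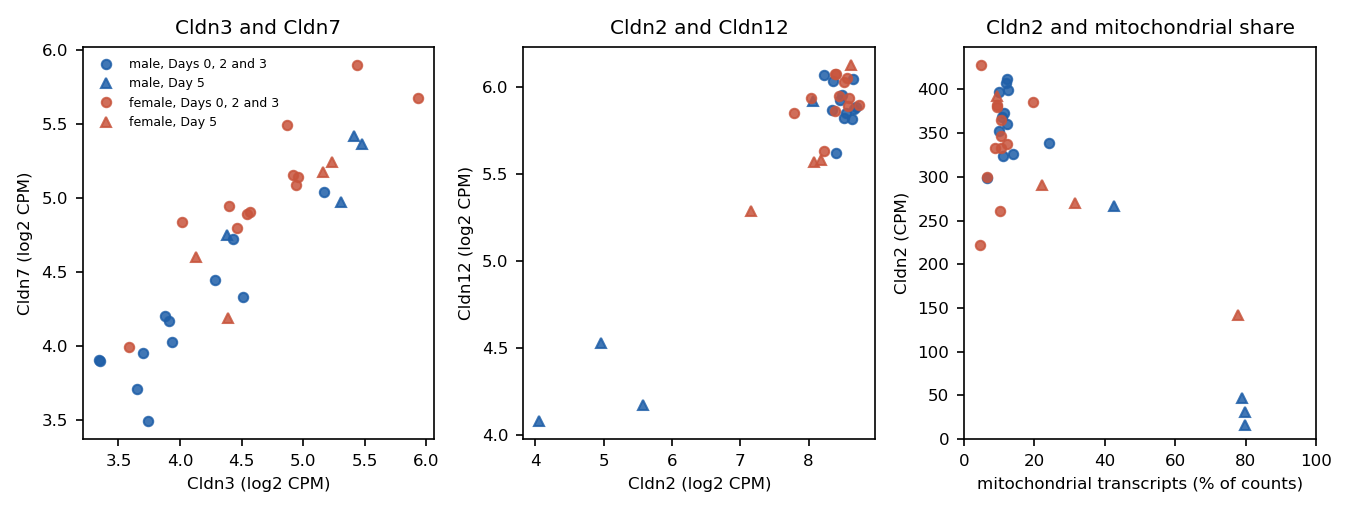
Left and middle, log2 CPM of Cldn7 against Cldn3 and of Cldn12 against Cldn2, 1 point per mouse; right, CPM of Cldn2 against the share of counts from the mitochondrial genome (%). Triangles are Day 5, blue males and red females. Cldn3 and Cldn7 form 1 line over all days, Cldn2 and Cldn12 are joined by the Day 5 mice, and the 4 mice near 80% mitochondrial transcripts have the lowest Cldn2.

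Cldn5, the endothelial claudin, was the only member called lower after cisplatin in the edgeR test as set out above. Other fits called further members lower, among them Cldn2 in 4 of 8 and Cldn12 in 2 of 8 for Day 5 males. Day 0 females had 32, 47.4, 60.0 and 23.3 CPM, and Day 3 females 16, 15.2, 15.2 and 17.7 CPM, all below Day 0. The mean fell from 40.7 ± 16.3 to 16 ± 1.15 CPM (SD, n = 4), a log2 fold change of -1.36 (SE 0.275, edgeR adjusted p = 0.0465). The call rested on several mice: it held without female Day 0 mouse 4 (adjusted p = 0.00169) and was lost without any other mouse of the 2 groups (adjusted p from 0.0664 to 0.168). It was also lost with the mouse number as a replicate block (edgeR adjusted p = 0.143). Levels in the other female groups were 24.5, 14.0, 16.3 and 19.3 CPM at Day 2 and 23.9, 15.6, 22.7 and 20 CPM at Day 5, in each case with 1 or more mice inside the Day 0 range (edgeR adjusted p = 0.0669 and 0.192). Both were called without female Day 0 mouse 4 (adjusted p = 0.00635 and 0.0173), and of 8 other fits 5 called Cldn5 lower at Day 2 and 2 at Day 5 (lowest adjusted p = 0.000276 and 0.0222, voom). Day 0 males had 17.9, 14.9, 42.8 and 22.9 CPM, and Day 3 males 17.1, 12.6, 15.6 and 11.3 CPM, with overlap (log2 fold change -0.81, SE 0.329, edgeR adjusted p = 0.0997). The sex by Day 3 interaction did not pass the test (edgeR adjusted p = 0.915).

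Other endothelial genes were looked at beside Cldn5. Of 9 markers, 1 was called lower in Day 3 females (Emcn, log2 fold change -1.10, SE 0.258, edgeR adjusted p = 0.048) and 0 higher. Of all genes, 4.28% were called lower and 1.26% higher. Of the 9 markers, 7 had a fold change above 0. Their summed level was 500 to 567 CPM at Day 0 and 422 to 550 CPM at Day 3, and Cldn5 against that sum was 4.20% to 11% and 2.76% to 4.08%. In males Flt1 (log2 fold change 1.27, SE 0.184) and Tek (1.24, SE 0.163) rose at Day 3 while Cldn5 against the sum was 1.83% to 2.68%, below the 3.14% to 8.29% of Day 0. Over the 32 libraries the summed endothelial markers correlated with Cldn5 at r = 0.166, the principal cell sum at r = 0.723, the adipocyte sum at r = 0.696 and the distal convoluted tubule sum at r = 0.686. In females the last 2 sums were lower at Day 3 than at Day 0 without overlap (368 to 641 against 699 to 1460 CPM, and 337 to 860 against 906 to 1190 CPM). The principal cell sum overlapped (854 to 1020 against 720 to 1700 CPM). The part of these cells in the Cldn5 values was not tested. The 2 genes most like Cldn5 were S100a1 (r = 0.952) and the ribosomal protein gene Rpl36 (r = 0.946).

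Cldn1, best known in the kidney from Bowman's capsule, rose in CPM in Day 5 males. Markers of that capsule were not looked at. Among the summed markers of cell types, Cldn1 correlated most with those of urothelium over the 32 libraries (r = 0.708). The gene most like it was Asprv1 (r = 0.759). Day 0 males had 18.1, 18.4, 8.72 and 11.8 CPM, and Day 5 males 22.3, 35.8, 61.7 and 25.7 CPM, all above Day 0. The raw counts overlapped, with 333, 368, 239 and 205 at Day 0 and 398, 241, 383 and 183 at Day 5. The rise was thus seen on the scaled values, with TMM factors of 0.306 to 0.332 in Day 5 mice 2 to 4. The mean rose from 14.2 ± 4.78 to 36.4 ± 17.9 CPM (SD, n = 4), a log2 fold change of 1.42 (SE 0.367, edgeR adjusted p = 0.0283). The call held without male Day 0 mouse 3 and without the library labelled male Day 5 mouse 1 (adjusted p = 0.0483 and 0.0116) and was lost without each of the other 6 mice, with values from 0.0507 to 0.081. It was also lost with the mouse number as a replicate block (adjusted p = 0.0729), and the fold change lies under an absolute log2 limit of 1.5. Day 5 females had 19.9, 11.1, 14.5 and 16.7 CPM against 18.1, 23.2, 26.5 and 24.5 CPM at Day 0, with overlap. The difference between the sexes in this change was 1.96 log2 units (SE 0.448, edgeR adjusted p = 0.073), and it passed the test without the library labelled male Day 5 mouse 1 (adjusted p = 0.00761) and in 4 of 8 other fits (lowest adjusted p = 0.00339, voom).

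Cldn11 was the scarcest member and had the largest log2 fold change of the 9. Day 0 males had 10, 38, 22 and 44 counts, or 0.543, 1.90, 0.803 and 2.53 CPM. Day 5 males had 110, 84, 35 and 79 counts, or 6.15, 12.5, 5.64 and 11.1 CPM, all above every other mouse of the series. The mean rose from 1.44 ± 0.933 to 8.84 ± 3.45 CPM (SD, n = 4), a log2 fold change of 2.68 (SE 0.526, edgeR adjusted p = 0.0132), and the call held under all 8 alternative fits and without each mouse in turn. Day 5 females had 1.45, 1.44, 1.68 and 1.80 CPM, and at Days 2 and 3 both sexes lay between 1.02 and 3.07 CPM. Nearest to it over the 32 libraries were Hspa1b, a stress-induced chaperone (r = 0.834), and Lypd1 (r = 0.808), with r = 0.648 and 0.416 without Day 5.

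**Figure D4:**
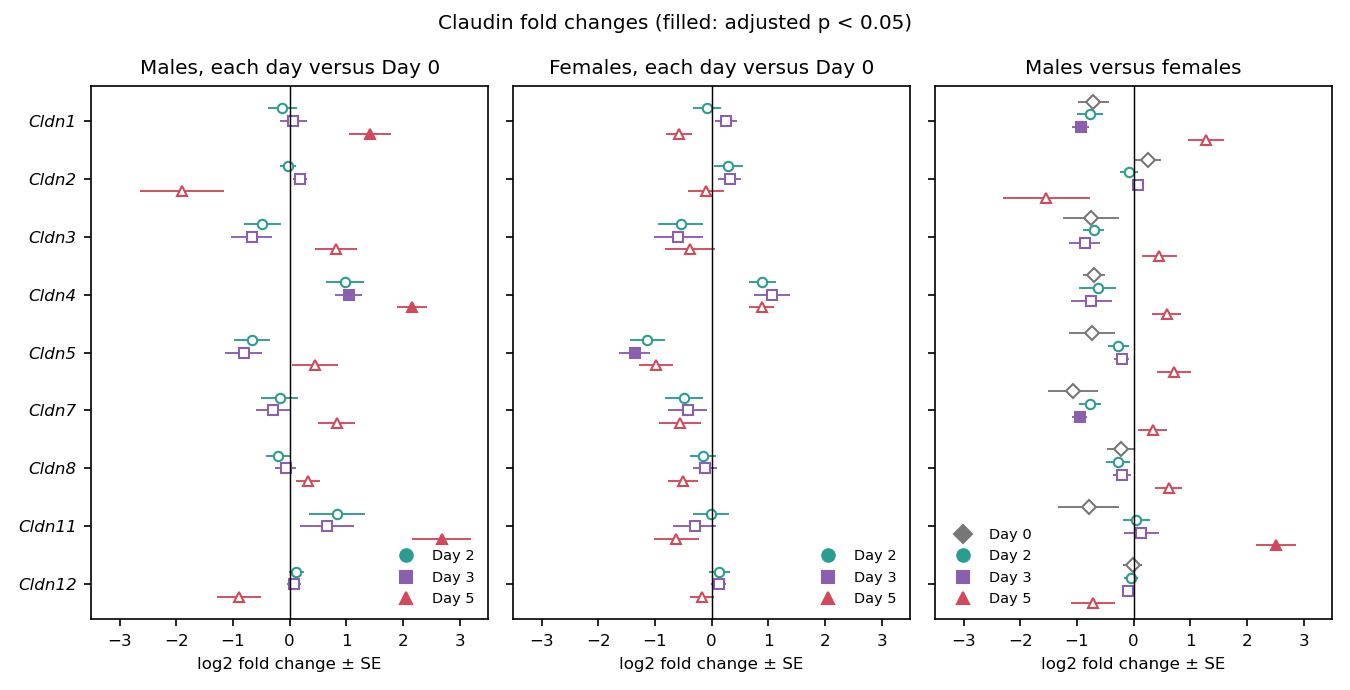
Log2 fold change with its SE (edgeR) for each claudin, males and females at Days 2, 3 and 5 against Day 0 (left and middle) and males against females at each day (right). Filled symbols passed an adjusted p of 0.05: Cldn4 at Days 3 and 5 and Cldn1 and Cldn11 at Day 5 in males, Cldn5 at Day 3 in females, and Cldn1 and Cldn7 at Day 3 and Cldn11 at Day 5 between the sexes.

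The second question was where the sexes differed. Cldn1 and Cldn7 were lower in males than in females at Day 3, and Cldn11 was higher in males at Day 5. At Day 0, 0 of 9 claudins were called (0.237% of all genes were higher in males and 0.212% lower, 3 claudins and 8.04% of genes had an unadjusted p under 0.05, DESeq2 called 0 and 2.73%, and voom 4 and 25.2%). At Day 2, 0 of 9 were called (0.891% and 0.578%, with 3 claudins and 15% of genes at an unadjusted p under 0.05, 3 and 5.12% called by DESeq2, and 4 and 19% by voom). Day 3 gave 2 lower and 0 higher, against 10.7% and 10.6% of all genes, and Day 5 gave 1 higher and 0 lower, against 0.217% and 0.0591%. The interaction of sex with day was called for 0 of 9 claudins at Day 2 (0% of all genes, while 738 genes had an unadjusted p under 0.05, DESeq2 called 19 genes and voom 1950), for 0 of 9 at Day 3 (0.0114% of all genes) and for 1 at Day 5 (0.243%). No claudin had an unadjusted p under 0.05 for the Day 2 or Day 3 interaction, DESeq2 called none, and voom called 1 and 2 claudins, and 11.2% and 12% of all genes.

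At Day 3 Cldn1 was 16.8, 12.9, 15.3 and 14.5 CPM in males and 34.7, 21.8, 30.1 and 24.5 CPM in females, without overlap (log2 fold change -0.93, SE 0.149, edgeR adjusted p = 0.00333). Cldn7 was 21.7, 14.9, 16.2 and 14.9 CPM in males and 33.9, 28.4, 30.7 and 35.5 CPM in females, also without overlap (log2 fold change -0.95, SE 0.128, edgeR adjusted p = 0.00146). Both calls held without each mouse in turn and were lost in a single fit over all 8 groups (adjusted p = 0.106 and 0.178). At Day 2 Cldn7 was 13, 17.9, 15.4 and 26.2 CPM in males and 35.1, 29.5, 29.9 and 27.6 CPM in females, without overlap (log2 fold change -0.77, SE 0.199, edgeR adjusted p = 0.0963). Cldn3 at Day 2 was 12.5, 15.0, 12.9 and 21.4 CPM in males and 30.9, 23.2, 23.6 and 21.9 CPM in females, also without overlap (log2 fold change -0.70, SE 0.189, edgeR adjusted p = 0.106). Both were called without male Day 2 mouse 4, the highest male (adjusted p = 0.0116 and 0.0227). Cldn4 at Day 0 was likewise lower in every male than in any female (log2 fold change -0.70, SE 0.201, edgeR adjusted p = 0.277). The fold change of males against females was below 0 for 8 of 9 claudins at Day 0 and Day 2 and for 7 at Day 3, and above 0 for 7 at Day 5. The median log2 fold change of all genes was -0.00164, -0.0198, -0.0197 and -0.00187 at Days 0, 2, 3 and 5. Some of the claudin values were near 0, such as -0.015 for Cldn12 at Day 0. Members such as Cldn3 and Cldn7 moved together (r = 0.906), so the signs are not separate observations.

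Markers of several cell types differed between the sexes at Day 3 beside these claudins. Of all genes, 10.7% were called lower in males and 10.6% higher. Of 6 principal cell markers tested, 5 were lower in males and 0 higher, led by the sodium channel subunit gene Scnn1g (log2 fold change -0.83, SE 0.0756) and Hsd11b2 (-0.66, SE 0.0804), and of 5 intercalated cell markers 3 were lower. The summed principal cell markers were 621 to 746 CPM in males and 854 to 1020 CPM in females, and Cldn7 against that sum was 2.24% to 2.91% and 2.92% to 3.60%. Among proximal tubule markers 6 of 10 were higher in males and 0 lower, and among endothelial markers 7 of 9 and 0. Urothelial markers were lower in males for 4 of 8 and higher for 0, with sums of 31.3 to 44.7 CPM in males and 47.4 to 138 CPM in females, and adipocyte markers were lower for 4 of 5. Over the 32 libraries the urothelial sum correlated with Cldn1 at r = 0.708 and with Cldn7 at r = 0.667. The part of these cells in the claudin results was not tested.

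At Day 5 Cldn11 differed between the sexes by a log2 fold change of 2.51 (SE 0.349, edgeR adjusted p = 0.0233), and the sex by Day 5 interaction was 3.28 (SE 0.632, edgeR adjusted p = 0.0393). The sex call was lost without male Day 5 mouse 2 or 4 or female Day 5 mouse 1, 3 or 4 (adjusted p up to 0.163). It was also lost with the mouse number as a replicate block (edgeR adjusted p = 0.0639). The interaction held without male Day 0 mouse 4, female Day 0 mouse 4, the library labelled male Day 5 mouse 1 or female Day 5 mouse 2. It was lost without any of the other 12 mice (adjusted p up to 0.118). Cldn1 was higher in every Day 5 male than in any Day 5 female (log2 fold change 1.28, SE 0.318, edgeR adjusted p = 0.108). Without the library labelled male Day 5 mouse 1, 6 claudins were called at Day 5 in place of 1, while calls over all genes went from 42 to 2644. Cldn1, Cldn4, Cldn5 and Cldn11 were then called higher and Cldn2 and Cldn12 lower in males.

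The male Day 5 libraries also differed from Day 0 in markers of other cell types. Of all genes, 8.98% were called higher and 10.2% lower. Urothelial markers, of the lining of the renal pelvis, were higher for 4 of 8 and lower for 0, with Upk3b at a log2 fold change of 2.67 (SE 0.53) and Psca at 2.49 (SE 0.53), and their sum was 84.2 to 383 CPM against 37.5 to 75.9 CPM in Day 0 males. Intercalated cell markers were higher for 3 of 5, endothelial markers for 3 of 9, and the water channel gene Aqp2 rose (log2 fold change 1.32, SE 0.391, edgeR adjusted p = 0.042). The adipocyte sum was 850 to 4580 CPM against 454 to 2280 CPM in Day 0 males, and the leukocyte sum 72.2 to 232 CPM against 92.7 to 146 CPM, both with overlap. Over the 32 libraries the urothelial sum correlated with Cldn1 at r = 0.708, with Cldn3 at r = 0.745 and with Cldn4 at r = 0.647. The adipocyte sum correlated with Cldn11 at r = 0.53. Urothelium also expresses claudins, and the part of these cells in the Day 5 values was not tested.

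Other junction genes were called in both sexes. Tjp1, which encodes the ZO-1 scaffold that anchors claudins to actin, rose in males at Day 2 (log2 fold change 1.01, SE 0.168), Day 3 (1.15, SE 0.136) and Day 5 (1.51, SE 0.266). Of 16 scaffold and polarity genes tested, 7 rose and 1 fell in Day 3 males, where 11.4% of all genes were called higher and 13.1% lower. They included Magi3 (log2 fold change 0.96, SE 0.186) and the cingulin gene Cgn (0.89, SE 0.264), with the polarity gene Crb3 falling (-0.97, SE 0.234). In Day 5 males 2 of the 16 rose and 1 fell, against 8.98% and 10.2% of all genes. In females the edgeR test called 0 of the 16 against Day 0, with 6, 7 and 2 at an unadjusted p under 0.05 at Days 2, 3 and 5. Of all genes, 25.3%, 30.7% and 15.7% had such a p. Among 12 other membrane proteins of the junction, Jam3 fell in both sexes, by the largest log2 fold change in Day 2 females (-1.46, SE 0.248). Occludin (Ocln) and the tricellular protein gene Ildr1 rose in females at Day 2 (log2 fold change 1.04, SE 0.221 and 0.91, SE 0.202) and Day 3 (1.01, SE 0.188 and 0.90, SE 0.184), with tricellulin (Marveld2) at Day 3 (0.96, SE 0.181). Without female Day 0 mouse 1, 0 genes were called in Day 3 females, so every Day 3 call in females was then lost. In Day 5 males Jam2 (2.26, SE 0.408), F11r (0.85, SE 0.238) and Cdh1 (0.64, SE 0.2) rose.

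Among 8 genes that act on claudins or on transport beside them, the kinase gene Sgk1 rose in males at Day 2 (log2 fold change 1.11, SE 0.205), Day 3 (0.80, SE 0.18) and Day 5 (1.46, SE 0.197), and its change by Day 5 differed between the sexes (1.58, SE 0.27, edgeR adjusted p = 0.021). At Day 0 Sgk1 was lower in males (-1.24, SE 0.208, edgeR adjusted p = 0.0453). The membrane protease gene St14 rose (1.26, SE 0.218) and Prss8 fell (-1.75, SE 0.451) in Day 5 males. Of 11 epithelial transcription factors, 2 rose and 1 fell in Day 3 males, against 11.4% and 13.1% of all genes. In Day 5 males 4 rose and 1 fell, against 8.98% and 10.2%. Grhl2, which is known to drive Cldn4, rose in males at Day 3 (log2 fold change 1.08, SE 0.296) and Day 5 (1.90, SE 0.344). Its part in the Cldn4 values was not tested, and the Cldn4 promoter window held 0 Grainyhead-type sequences. Elf5 (2.34, SE 0.367) and the repressor Zeb1 (1.84, SE 0.498) also rose in Day 5 males. Of the thick limb claudins set apart at the start, Cldn10 fell in males at Day 2 (log2 fold change -0.86, SE 0.186), Day 3 (-0.72, SE 0.19) and Day 5 (-1.05, SE 0.225). In females the edgeR test called 0 thick limb claudins against Day 0, with 1 at an unadjusted p under 0.05 at each day. Of all genes, 25.3%, 30.7% and 15.7% had such a p at Days 2, 3 and 5.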

How the data were processed

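RNA-seq of kidney was analysed from the table that the authors deposited, which holds raw gene counts and FPKM values (fragments scaled by gene length and library size by the authors) for each library. The submitters' notes name HTSeq, DESeq2 and GRCm39, while the study's methods name GRCm38, and the coordinates in the table equalled those of GENCODE M21 on GRCm38 for 98.3% of shared gene IDs. Samples were grouped by the labels, and 0 columns were left unmapped. Counts were tested in R 4.3.3 with edgeR 4.0.16 (quasi-likelihood test, TMM normalization, filterByExpr, Benjamini-Hochberg adjustment over all genes tested), each of 15 comparisons being fitted on its own groups. CPM values were scaled with TMM factors of all 32 libraries, and a prior count of 2 was added for log2 CPM in correlations. FPKM served only to compare levels between genes. Each library was 1 mouse, so p-values measure the spread between 4 mice per group. The test was tried on simulated data. The claudins and the gene lists were chosen with earlier results of these data known. Claudins were all described, and of each other list at most 4 called genes with the largest fold change per comparison. Alternatives used DESeq2 1.42.0, limma 3.58.1, other filters and fits, and each mouse left out. Promoters came from RefSeq. Total counts ran from 16502107 to 35961325 per library. Some genes called in the lists are not reported here.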

Additional observations from a re-analysis of the deposited data

Results flagged for a closer look

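Single mice stood apart from the other 3 of their group, by Dixon's ratio at the 95% level, in 6 of 72 groups of 4, where chance flags about 1 in 20. Cldn2 was 267 CPM in the library labelled male Day 5 mouse 1, against 16.6 to 47.5 CPM in the others. Cldn12 was 60.5 CPM in that library, against 16.8 to 23.0 CPM. That library was also the male Day 5 library with the lowest mitochondrial share, 42.5%, and the library labelled male with the highest Xist count. The part of either in these values was not tested. Cldn2 was 428 CPM in female Day 2 mouse 1, against 333 to 338 CPM. Cldn5 was 55.6 CPM in male Day 5 mouse 4, against 21.8 to 27.2 CPM. Cldn11 was 1.73 CPM in female Day 0 mouse 2, against 2.64 to 2.74 CPM. Cldn12 was 66.1 CPM in male Day 3 mouse 4, against 57.6 to 59.0 CPM.

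The change of Cldn11 by Day 5 differed between the sexes, with an interaction of 3.28 on the log2 scale (SE 0.632, edgeR adjusted p = 0.0393).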

How the results depend on the processing

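Of the 135 fold changes (9 claudins in 15 comparisons), 38 had an unadjusted p under 0.05 or groups without overlap. An unadjusted p under 0.05 was met by 3.99% to 40.5% of all genes, depending on the comparison. None of these 38 fold changes reversed in 664 refits, of which 556 kept their side of the threshold, 71 came to pass it and 37 no longer passed it. The 38 were picked for a clear direction in the same counts, so the lack of reversals is no support for them. Of the other 97, all uncalled, 34 reversed in 109 of 1712 refits, from a log2 fold change of at most 0.289 in size, and 1 of these refits was called: Cldn1 in Day 3 males, -0.303 by voom (adjusted p = 0.0313) against 0.0646. The numbers of claudins called moved as follows, and their causes were not tested. They are to be read against all genes: against Day 0 on Days 2 and 3 voom called 46.4% to 57.1% of genes, on Day 5 54.8% in males and 18.9% in females, DESeq2 5.1% to 35.4% and the single fit 10.9% to 31.1%. Against Day 0, males at Day 2 had 0, but 1 by DESeq2, 2 by limma voom with sample quality weights and 1 in one fit over all 8 groups. Males at Day 3 had 1, but 0 with an absolute log2 fold change over 1.5 and 3 by voom, and 0 to 1 with a mouse left out (0 without male Day 3 mouse 3). Males at Day 5 had 3, but 8 by voom and 5 in one fit, and 2 to 5 with a mouse left out (5 without male Day 0 mouse 3 or the library labelled male Day 5 mouse 1). Females at Day 2 had 0, but 2 by DESeq2, 4 by voom, 1 without a filter, 2 with at least 10 counts in every library and 2 in one fit, and 0 to 4 with a mouse left out. Females at Day 3 had 1, but 0 over the 1.5 limit, 2 by DESeq2, 5 by voom and 2 in one fit, and 0 to 4 with a mouse left out. Females at Day 5 had 0, but 1 by DESeq2, 2 by voom and 1 in one fit, and 0 to 2 with a mouse left out. The highest of these 3 female counts came without female Day 0 mouse 4. Between the sexes, Day 0 had 0, but 4 by voom. Day 2 had 0, but 3 by DESeq2 and 4 by voom, and 0 to 3 with a mouse left out (3 without male Day 2 mouse 4, 1 without female Day 2 mouse 1). Day 3 had 2, but 0 over the 1.5 limit, 4 by voom and 0 in one fit, and 2 to 4 with a mouse left out (4 without female Day 3 mouse 2). Day 5 had 1, but 2 by DESeq2, 5 by voom, 2 without a filter and 4 in one fit, and 0 to 6 with a mouse left out (6 without the library labelled male Day 5 mouse 1). Over all genes 42 were called between the sexes at Day 5, and 0 to 2644 with a mouse left out, the most without that same library. The interaction had 0 at Day 2 but 1 by voom, 0 at Day 3 but 2 by voom, and 1 at Day 5 but 3 by DESeq2, 8 by voom, 2 with at least 10 counts in every library and 3 in one fit, and 0 to 5 with a mouse left out (5 without the library labelled male Day 5 mouse 1). Over all genes the Day 5 interaction was called for 41, and for 0 to 1173 with a mouse left out. For the sex and interaction comparisons the shares of all genes under other fits are given only in part, so these counts are no result about the claudins.

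Mice of different groups share only a number, and same-numbered mice did not deviate together throughout any comparison. With the mouse number as a replicate block, 0 claudins were called in males at Day 3, 0 in females at Day 3 and 0 between the sexes at Day 5, and the other counts stayed within 1.5 times, although in Day 5 males Cldn1 was lost (adjusted p = 0.0729) and Cldn2 gained (adjusted p = 0.038). The limit of 1.5 also removed Cldn1 there, leaving 2. Over all genes, the number called also swung with a mouse left out. Against Day 0 it was 507 (13 to 2306), 3901 (669 to 6220) and 2878 (832 to 3951) in males at Days 2, 3 and 5, and 320 (21 to 4776), 945 (0 to 6774) and 42 (8 to 2082) in females, each female maximum without female Day 0 mouse 4. Between the sexes it was 72 (0 to 81), 244 (95 to 571), 3546 (1924 to 5770) and 42 (0 to 2644) at Days 0, 2, 3 and 5, and 41 (0 to 1173) for the Day 5 interaction, the last 2 maxima without the library labelled male Day 5 mouse 1. Depth limits Cldn11 most, with 10 to 44 counts in Day 0 males.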
